A study of Homo sapiens with 75 samples.

Results

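The genes described here encode the proteins that detect DNA double-strand breaks and repair them. The set is a list of 34 gene names. A member was measured through a probe set that the table of probes and genes assigns to a single symbol, and where a gene had several such probe sets the one with the highest mean over all arrays was used. This gave 31 members of 19775 genes measured in the series, 7 of 8 in end joining, 14 of 16 in homologous recombination and 10 of 10 in signalling. BRCA2, RBBP8 and NHEJ1 were not analysed here. All 31 members passed the level filter in every line, which keeps a gene where its mean over a line's 15 arrays exceeds the line's 40th percentile.

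A double-strand break is sensed by the complex that contains NBN and RAD50, which recruits and activates the kinase ATM. ATM phosphorylates chromatin around the break and effector kinases, and adaptors such as MDC1 and ubiquitin ligases such as RNF8 and RNF168 then build a platform for TP53BP1 or for BRCA1. The break is either rejoined directly, by the Ku proteins, DNA-PKcs and the XRCC4 and LIG4 ligase, or cut back to single strands and copied from a sister chromatid by homologous recombination, which is largely a pathway of S and G2 phase. Most of these proteins are known to be controlled by phosphorylation, ubiquitylation and recruitment. An array reports their messenger RNA, not that activity.

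RNA was measured on 75 single-sample oligonucleotide arrays from 5 human cell lines. They were TK6 (B lymphoblasts), U2OS (osteosarcoma), BJ (skin fibroblasts), G361 (melanoma) and HepG2 (hepatoma), all grown in the same serum-supplemented medium. In each line 3 arrays came from each of 5 groups, which were untreated (mock-irradiated) cells at 0 h, 3 h and 6 h and cells taken at 3 h and 6 h following a dose of 5 Gy. The design sets irradiated cells against untreated cells of the same time, and no genotype or agent other than radiation is named in the labels.

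Values are on the log2 scale, so a difference of 1 is 2-fold. Arrays of a group correlated at 0.970 to 0.996. Markers of each tissue were highest in the line of that name for melanocytes (6 of 6, in G361), B cells (6 of 6, in TK6) and fibroblasts (8 of 8, in BJ), while of 5 osteoblast markers 2 were highest in U2OS and 2 in HepG2 (RUNX2 at 9.17 in HepG2 and 8.04 in U2OS). Of the B cell markers, PAX5 (4.96 in TK6 against 4.65 to 4.82 elsewhere) and CIITA (3.99 against 3.72 to 3.93) were highest by small margins only. Of 10 hepatocyte markers 4 were highest in TK6 and 4 in U2OS, among the latter SERPINA1 at 8.57 against 3.26 in HepG2. Those in TK6 were highest by small margins, as TF at 4.45 against 4.20 to 4.35 elsewhere. AFP was highest in HepG2, at 5.89 against 5.48 in U2OS. The arrays labelled HepG2 lacked their defining markers, with 1 of 10 hepatocyte markers highest there and albumin (ALB) at 2.77 log2 against 2.81 to 2.94 in the other lines. The mean of 25 p53 target genes, relative to each line's 0 h arrays, was 1.37 to 1.61 in irradiated TK6, 0.65 to 1.34 in irradiated U2OS and 0.51 to 0.58 in irradiated BJ. It went against the labels in HepG2, at 0.84 to 0.88 on untreated arrays at 6 h and at most 0.20 on irradiated arrays at 3 h, and in G361, where 3 arrays labelled untreated stood at 0.68, 0.79 and 0.81 and the arrays irradiated 3 h before at -0.05 to 0.16. For these 2 lines arrays are named by their labels, and every comparison across lines that includes them rests on labels the p53 targets go against.

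Of the 31 members, 2 were called in any of the 10 comparisons of irradiated with untreated arrays of the same time, both of them genes of homologous recombination and both in TK6. RAD51C rose at 3 h and at 6 h, and BRIP1 rose at 6 h. In TK6, 1 of 31 members was called at 3 h, where limma called 3.99% of all genes (1.88% higher and 2.11% lower), and 2 of 31 at 6 h, where it called 6.23%. Calls used limma with an adjusted p (Benjamini-Hochberg) under 0.05 over all genes tested. The kinases, adaptors and ligases of the signalling group (0 of 10) and the end-joining factors (0 of 7) had no member called in any of the 10 comparisons. Outside TK6 at most 0.641% of all genes were called (U2OS at 6 h). With shares this low and so few genes per role, these counts do not set the roles apart. Replicate numbers paired the TK6 arrays, and with the number as a block 5 of 31 were called at 3 h (8.46% of all genes), among them NBN of the signalling group, lower (adjusted p = 0.0329), and 3 of 31 at 6 h (13.1%).

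**Figure D1:**
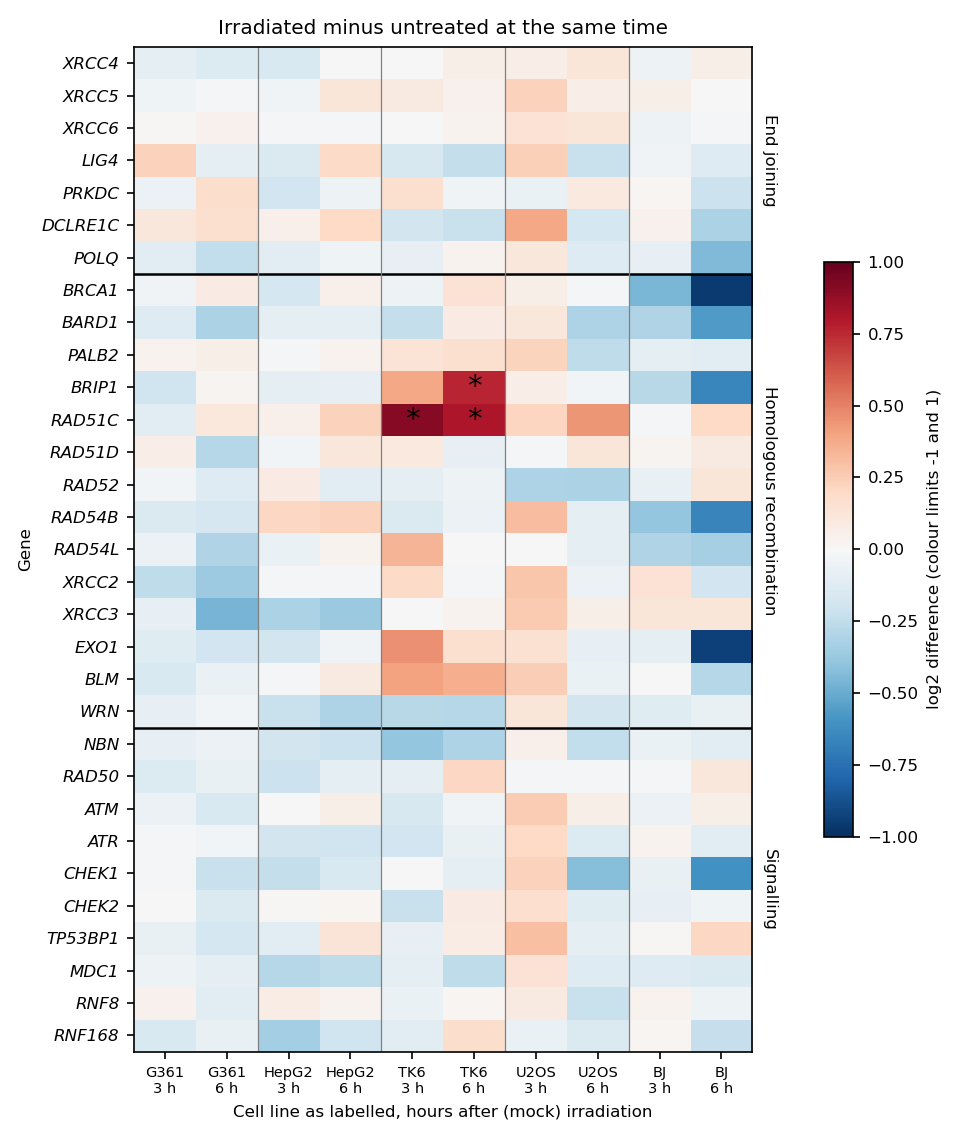
Log2 difference between irradiated and untreated arrays of the same time for the 31 members (rows, grouped by role) in the 5 lines at 3 h and 6 h (columns), 3 arrays against 3, coloured from -1 to 1. Asterisks mark the 3 called differences, RAD51C in TK6 at 3 h (0.91) and 6 h (0.81) and BRIP1 in TK6 at 6 h (0.76), and the deepest blue lies in the BJ column at 6 h, where no member was called.

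RAD51C encodes a protein of homologous recombination that works in complexes on single-stranded DNA. BRIP1 encodes a DNA helicase that binds BRCA1 and acts at stalled forks and in recombination. Both genes lie on the long arm of the same chromosome, RAD51C at chr17:58692573-58735611 on the forward strand and BRIP1 at chr17:61679139-61863528 on the reverse strand (RefSeq, GRCh38.p14). Because these are the members that rose, the 250 bases before each gene's start are shown, at chr17:58692323-58692572 for RAD51C and chr17:61863529-61863778 for BRIP1. They are written 5' to 3' in the direction of the gene. Capitals mark the searched letters: E2F sites TTTCCCGC, TTTGGCGC, TTTGCCGC and TTTCGCGC, the cell-cycle element CHR as TTTGAA or TTCGAA, and the NF-Y box CCAAT, on either strand.
RAD51C: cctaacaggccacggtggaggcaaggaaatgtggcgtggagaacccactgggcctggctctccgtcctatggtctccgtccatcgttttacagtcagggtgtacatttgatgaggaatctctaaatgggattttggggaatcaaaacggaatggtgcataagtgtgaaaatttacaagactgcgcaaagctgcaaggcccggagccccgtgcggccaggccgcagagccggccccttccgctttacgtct
BRIP1: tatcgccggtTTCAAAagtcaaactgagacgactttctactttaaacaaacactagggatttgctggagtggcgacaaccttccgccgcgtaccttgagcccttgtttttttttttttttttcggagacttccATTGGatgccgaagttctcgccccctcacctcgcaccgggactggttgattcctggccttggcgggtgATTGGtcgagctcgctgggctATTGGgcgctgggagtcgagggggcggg

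The RAD51C window held none of these letters. The BRIP1 window held a CHR match on the opposite strand 240 to 235 bases before the start and CCAAT on the opposite strand at 117 to 113, 49 to 45 and 28 to 24 bases before it. Neither window matched the p53 decamer, a single unit of the paired p53 element, searched by name; the full element was not searched. Promoter windows were matched for 26 of 31 members. CCAAT stood in 13 of the 26, against 33.0% of 27305 promoters of the same length, and the CHR letters in 4 of 26, against 14.6%. The E2F letters stood in 0 of 26 (2.79% of all promoters) and the p53 decamer in 1, BLM (5.53% of all promoters). A match is a description of the letters in this window, and so is its absence.

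In TK6 at 3 h the untreated arrays read 9.06, 8.88 and 9.14 log2 for RAD51C, and the irradiated arrays 9.97, 9.89 and 9.97. Every irradiated array lay above every untreated one, by more than the spread within either group. The difference was 0.91 (SE 0.10; 9.94 ± 0.05 against 9.03 ± 0.13, SD, n = 3 each), 1.88-fold, with adjusted p = 4.93e-06 by limma. At 6 h the untreated arrays read 9.19, 9.16 and 9.06 and the irradiated arrays 10.05, 9.92 and 9.87. The groups again did not overlap, and the difference was 0.81 (SE 0.10, 1.75-fold, limma adjusted p = 2.44e-05). The 0 h arrays, from 8.94 to 9.24, also lay below all irradiated ones. A second probe set of the gene differed by 0.96 at 3 h and 0.79 at 6 h in TK6.

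The other lines showed smaller RAD51C differences, none of them called. In U2OS at 6 h the untreated arrays read 9.88, 10.00 and 10.01 and the irradiated arrays 10.38, 10.39 and 10.43. The groups did not overlap, yet the difference of 0.44 (SE 0.14) had adjusted p = 0.388 with the spread of all 15 U2OS arrays. It was called after quantile normalization (adjusted p = 0.00391), in a fit of all 75 arrays (0.0265), in a fit of the 6 arrays alone (0.0482) and without replicate 1 (0.00391), with adjusted p from 0.00391 to 1 over the alternatives. In U2OS at 3 h, untreated replicate 1 read 9.51 and the other untreated arrays 10.03 and 10.04, against 10.06, 10.11 and 10.05 after irradiation, a difference of 0.22 (SE 0.14). In BJ the difference was -0.01 at 3 h and 0.20 (SE 0.13) at 6 h. The arrays labelled HepG2 gave 0.05 at 3 h and 0.23 (SE 0.08) at 6 h, and those labelled G361 -0.11 and 0.10.

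The irradiated arrays of RAD51C lay above all untreated arrays of the same time in 7 of the 10 comparisons, in TK6, U2OS and HepG2 at both times and in BJ at 6 h. This count was chosen after the values were seen. Of 12970 genes tested in all 5 lines, 15 reached 7 or more such comparisons (0.116%). No other member reached more than 2 on the high side. On the low side WRN lay apart in 4 comparisons and BARD1, XRCC3 and MDC1 in 3 each, counts for which no share of all genes is given. Both HepG2 comparisons among the 7 of RAD51C rest on the doubtful labels.

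In TK6 at 6 h the untreated arrays of BRIP1 read 7.14, 7.04 and 7.05 and its irradiated arrays 8.07, 7.70 and 7.74. The irradiated arrays lay above all untreated ones, and the difference was 0.76 (SE 0.14, 1.69-fold, limma adjusted p = 0.00203). At 3 h the untreated arrays read 7.15, 6.94 and 7.37 and the irradiated ones 7.59, 7.57 and 7.46, a difference of 0.39 (SE 0.14) that was not called (adjusted p = 0.181). A second BRIP1 probe set differed by 0.33 at 3 h and 0.94 at 6 h. The change between 3 h and 6 h was itself not called for BRIP1 (0.37, SE 0.20, adjusted p = 0.740) or RAD51C (-0.10, SE 0.14, adjusted p = 0.969).

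**Figure D2:**
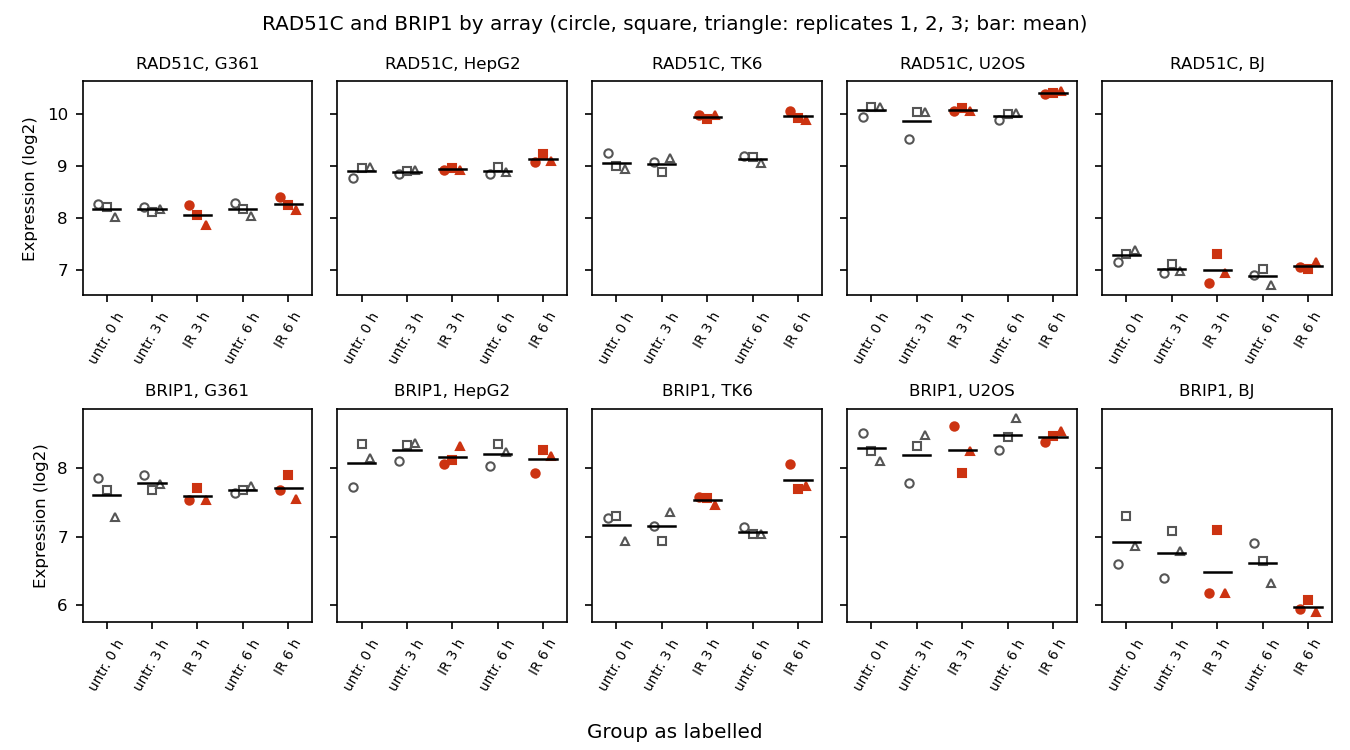
RAD51C (top) and BRIP1 (bottom) on every array of the 5 lines, in log2, with untreated arrays open, irradiated arrays filled and bars at the mean of 3. In TK6 the 3 irradiated arrays of RAD51C sit at 9.89 to 9.97 at 3 h and 9.87 to 10.05 at 6 h, above all TK6 untreated arrays, and BRIP1 in BJ at 6 h sits at 5.89 to 6.08 after irradiation against 6.32 to 6.90 untreated.

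Whether these effects differed between lines was tested with a moderated F over the 5 lines in 1 fit of 75 arrays. RAD51C was called at 3 h, the only member among 31, where 1.34% of all genes were called (adjusted p = 3.85e-05). At 6 h BRIP1 (adjusted p = 0.0102) and RAD51C (0.0238) were called, where 1.83% of genes were. The TK6 effect exceeded the mean effect of the other 4 lines by 0.88 for RAD51C at 3 h (SE 0.13; 1.97% of genes called), by 0.57 at 6 h (SE 0.13, adjusted p = 0.00380; 2.13% of genes called) and by 0.94 for BRIP1 at 6 h (SE 0.21, adjusted p = 0.00407). Against single lines at 6 h, the TK6 effect on RAD51C exceeded that in BJ by 0.61 (adjusted p = 0.0297; 1.45% of genes called), while the excess over U2OS of 0.37 (SE 0.16) was not called (adjusted p = 0.512; 1.12% of genes called). For BRIP1 at 6 h the excess was called over BJ alone (1.41, SE 0.27, adjusted p = 5.78e-04). It was not called over U2OS (0.78, adjusted p = 0.222), HepG2 (0.84, 0.162; 1.25% of genes called) or G361 (0.73, 0.286; 1.34% of genes called). Each of these F calls was lost when some replicate number was left out of every group. Without replicate 1 RAD51C kept its F calls (adjusted p = 7.50e-05 at 3 h and 0.0440 at 6 h). Without replicate 2 and 3 the share of all genes called also fell, to 0.399% and 0.324% at 3 h and to 0.505% and 0.568% at 6 h. RAD51C at 3 h lost its call without replicate 2 (adjusted p = 0.0870) or 3 (0.0911), RAD51C at 6 h without replicate 2 (1) or 3 (0.621), and BRIP1 at 6 h without replicate 1 (0.106), 2 (0.179) or 3 (0.326). RAD51C at 6 h also lost it with the mean of all probe sets (0.215) and without G361 and HepG2 (0.181).

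Other recombination genes in TK6 differed without being called. At 3 h, EXO1, an exonuclease that resects break ends, stood at 0.46 (SE 0.15, adjusted p = 0.129), BLM, a helicase that dissolves recombination intermediates, at 0.40 (SE 0.14, adjusted p = 0.133), and RAD54L, a motor protein of strand exchange, at 0.34 (SE 0.13, adjusted p = 0.211). BARD1, the partner of BRCA1, stood at -0.24 (SE 0.08, adjusted p = 0.140). The 5 members called at 3 h with the replicate block were RAD51C, EXO1 (adjusted p = 0.00338), BLM (0.0197), BARD1 lower (0.0235) and NBN lower (0.0329). At 6 h the block added BLM (0.36, adjusted p = 0.0269) to the same pair, 3 of 31 members against 13.1% of all genes. WRN, a helicase related to BLM, was the lowest recombination gene at both times, at -0.28 and -0.28 (SE 0.15 each).

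No end-joining member was called in TK6. At 3 h the 7 members ranged from -0.19 for DCLRE1C, the nuclease Artemis (SE 0.14, adjusted p = 0.667), to 0.16 for PRKDC, the catalytic subunit of DNA-PK (SE 0.14, adjusted p = 0.735). At 6 h they ranged from -0.24 for the ligase gene LIG4 (SE 0.19, adjusted p = 0.630) to 0.06 for its cofactor XRCC4 (SE 0.15). In signalling, all 10 members had differences under 0 at 3 h, from -0.38 for NBN (SE 0.18, adjusted p = 0.357) to -0.01 for the checkpoint kinase gene CHEK1, and none was called. Only the 95% interval of NBN (-0.762 to -0.007) excluded 0, and no share of all genes under 0 is set beside that count. At 6 h 5 of 10 were under 0, and RAD50, a subunit of the same complex as NBN, was highest at 0.21 (SE 0.10, adjusted p = 0.307).

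Set side by side as medians in TK6, end joining, recombination and signalling stood at -0.01, 0.12 and -0.10 at 3 h and at 0.03, 0.06 and -0.01 at 6 h, beside 0.01 for all genes tested at either time. Cell-cycle markers moved in the same arrays. Of 24 markers of G2 and mitosis, 21 fell at 3 h and 15 at 6 h, and their mean relative to 0 h was 0.10 to 0.19 in untreated and -1.14 to -0.95 in irradiated arrays at 3 h. Of 28 S phase markers 4 rose at 3 h, with means of -0.04 to 0.17 untreated and 0.10 to 0.28 irradiated. At 6 h 4 rose and 5 fell, with means of 0.05 to 0.13 untreated and 0.05 to 0.14 irradiated. Their part in the member differences was not tested. In 8 members the groups did not overlap at 3 h, 4 higher (8.37% of all genes) and 4 lower (8.99%), and in 7 at 6 h, 4 higher (13.1%) and 3 lower (10.6%), and these counts are read against those shares.

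In U2OS, 0 of 31 members were called at 3 h (0.0887% of all genes called) and 0 at 6 h (0.641%), with 0 and 2 members at an unadjusted p under 0.05. No share of all genes at that unadjusted p is set beside such counts, in U2OS or the other lines. They name single members and are not read as results about the set. At 6 h these were RAD51C and CHEK1, whose kinase enforces the S and G2 checkpoints. CHEK1 read 8.27, 8.58 and 8.66 untreated and 8.03, 8.18 and 8.03 irradiated. Its groups did not overlap, and the difference was -0.43 (SE 0.17, adjusted p = 0.947), against 0.23 (SE 0.17) at 3 h. RAD52, a mediator of strand annealing, was the lowest recombination gene at 6 h at -0.31 (SE 0.30), and LIG4 the lowest in end joining at -0.22 (SE 0.26). The differences at 6 h ran from -0.22 (LIG4) to 0.12 (XRCC4) in end joining, -0.31 (RAD52) to 0.44 (RAD51C) in recombination and -0.43 (CHEK1) to 0.06 (ATM) in signalling.

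At 3 h in U2OS the medians of end joining, recombination and signalling were 0.15, 0.14 and 0.15, beside 0.10 for all genes. Untreated replicate 1 stood apart there, with means of the 3 groups at -0.48, -0.47 and -0.48 relative to 0 h and the p53 targets at -0.34. Without that array the medians were -0.01, 0.03 and 0.00, and after quantile normalization 0.01, 0.00 and 0.02. The highest differences of each role at 3 h, none called, were 0.38 for DCLRE1C (SE 0.29), 0.31 for the strand-exchange factor RAD54B (SE 0.20) and 0.30 for TP53BP1 (SE 0.17). At 6 h the medians were 0.07, -0.07 and -0.13, beside 0.00 for all genes, and 14 of 24 markers of G2 and mitosis had fallen while 0 of 28 S phase markers were called. At 3 h the differences ran from -0.07 (PRKDC) to 0.38 (DCLRE1C) in end joining, -0.31 (RAD52) to 0.31 (RAD54B) in recombination and -0.06 (RNF168) to 0.30 (TP53BP1) in signalling.

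In BJ fibroblasts at 6 h several recombination genes had differences near or below -0.6, none of them called. Limma called 0 of 31 members there (0.235% of all genes called), and 7 had an unadjusted p under 0.05, a threshold for which no share of all genes is given. BRCA1, whose protein steers breaks towards recombination, read 5.83, 5.59 and 5.60 untreated and 4.74, 5.03 and 4.38 irradiated. The groups did not overlap, and the difference was -0.96 (SE 0.33, adjusted p = 0.584). EXO1 read 5.41, 5.00 and 4.80 untreated and 3.65, 4.48 and 4.29 irradiated, a difference of -0.93 (SE 0.35, adjusted p = 0.672), again without overlap.

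RAD54B in BJ at 6 h read 5.77, 5.54 and 5.41 untreated and 4.85, 4.89 and 4.99 irradiated (-0.66, SE 0.21, adjusted p = 0.433). BRIP1 read 6.90, 6.65 and 6.32 untreated and 5.94, 6.08 and 5.89 irradiated (-0.65, SE 0.24, adjusted p = 0.669). BARD1 read 7.86, 7.97 and 7.64 untreated and 7.14, 7.46 and 7.17 irradiated (-0.57, SE 0.26, adjusted p = 0.840). In each of these genes all irradiated arrays lay below all untreated ones. POLQ, the polymerase of microhomology-mediated end joining, also had no overlap (-0.44, SE 0.21, adjusted p = 0.842), while the CHEK1 groups overlapped (-0.61, SE 0.25, adjusted p = 0.744). In all, 7 members lay apart on the low side, where 4.9% of all genes did, and 1 on the high side, RAD51C (5.92%). Over all members the differences at 6 h ran from -0.44 (POLQ) to 0.06 (XRCC4) in end joining, -0.96 (BRCA1) to 0.20 (RAD51C) in recombination and -0.61 (CHEK1) to 0.21 (TP53BP1) in signalling.

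**Figure D3:**
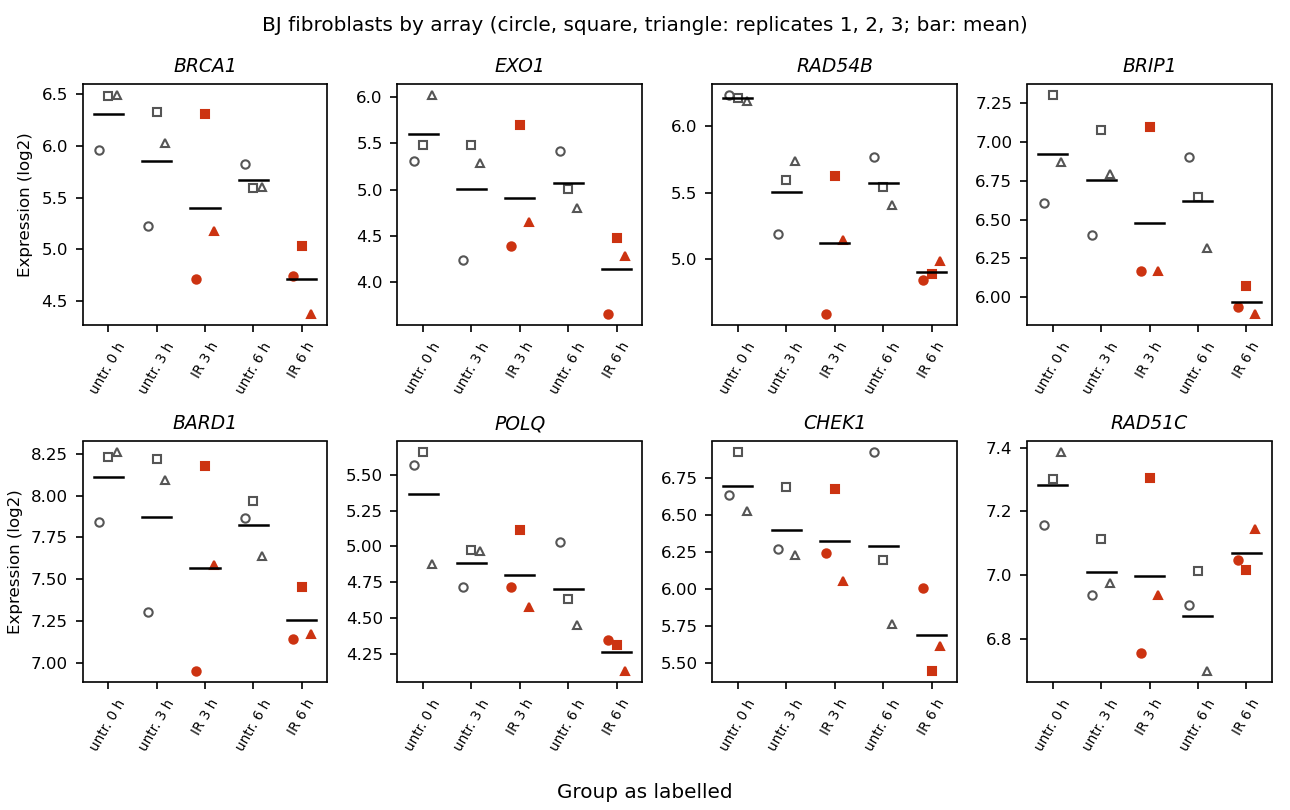
Log2 values of 8 members on the 15 BJ arrays, with untreated arrays open, irradiated arrays filled and bars at the mean of 3, on axes that differ between genes and do not start at 0. In BRCA1 the irradiated arrays at 6 h (4.38 to 5.03) lie below the untreated ones at 6 h (5.59 to 5.83) and 0 h (5.96 to 6.49), and irradiated replicate 2 at 3 h (6.31) lies far above the other 2 (4.71 and 5.18).

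The same irradiated arrays were also set against the untreated arrays at 0 h. Against these, 5 of 31 members fell at 6 h, where 1.39% of all genes fell and 2.08% were called. They were RAD54B at -1.30 (SE 0.21, limma adjusted p = 0.00394), POLQ at -1.10 (0.00954), BRCA1 at -1.59 (SE 0.33, adjusted p = 0.0182), EXO1 at -1.47 (0.0384) and CHEK1 at -1.01 (0.0426). All 14 recombination members were under 0 in this comparison, some barely (PALB2 at -0.008), with a median of -0.33 beside 0.01 for all genes. All end-joining members were under 0 too (XRCC5 at -0.0011), as were those of signalling except ATM (0.06) and TP53BP1 (0.03). End joining and signalling had medians of -0.14 and -0.14. At 3 h RAD54B was the only member that fell against 0 h (-1.09, adjusted p = 0.0282; 0.297% of all genes called). Untreated arrays at 6 h stood at -0.64 for RAD54B, -0.66 for POLQ and -0.64 for BRCA1 against 0 h, none called. In the fit of all 75 arrays 3 of 31 members fell in BJ at 6 h against untreated cells of that time, BRCA1 (adjusted p = 0.00657), EXO1 (0.0106) and RAD54B (0.0147), where 1.02% of all genes were called. That fit takes 1 spread per gene from all 5 lines, and the fit of the BJ arrays called none of these 3. The 95% interval of BRCA1 at 6 h reached 0.70 either side in BJ, against 0.25 (HepG2) to 0.47 (U2OS) in the other lines. From the same fit of 75 arrays, the BRCA1 effect in BJ minus the mean of the other 4 lines was -1.02 (SE 0.24, limma adjusted p = 0.0277, 0.324% of genes called). Those 4 lines include G361 and HepG2, whose labels are in doubt. The moderated F over the 5 lines did not call BRCA1 at 6 h (adjusted p = 0.109).

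By role, the BJ medians at 6 h against untreated cells of that time were -0.13 in end joining, -0.24 in recombination and -0.08 in signalling, beside 0.02 for all genes. The markers of proliferating cells moved in the same arrays. Of 24 markers of G2 and mitosis 7 fell, with means relative to 0 h of -0.78 to -0.11 in untreated and -1.62 to -1.56 in irradiated arrays, and of 28 S phase markers 1 fell, with means of -0.48 to 0.14 and -0.96 to -0.90. In bulk RNA fewer cells in a phase of the cycle and less RNA per cell cannot be told apart, and the part of these markers in the member differences was not tested.

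At 3 h in BJ limma called 0 of 31 members (0.18% of all genes), with 0 at an unadjusted p under 0.05. BRCA1 was lowest at -0.46 (SE 0.33) and XRCC2, a gene of homologous recombination, highest at 0.15 (SE 0.20). By role the differences ran from -0.08 (POLQ) to 0.06 (XRCC5) in end joining, -0.46 (BRCA1) to 0.15 (XRCC2) in recombination and -0.13 (MDC1) to 0.04 (RNF8) in signalling. Single arrays stood apart in both groups. The recombination mean relative to 0 h was 0.06 in irradiated replicate 2, against -0.68 and -0.43 in the other irradiated arrays, and -0.51 in untreated replicate 1, against -0.05 and -0.10. The S phase markers stood at 0.17 in that irradiated array and -0.66 in that untreated one. The recombination median at 3 h was -0.09 with all arrays, -0.23 without irradiated replicate 2, -0.21 without untreated replicate 1 and 0.05 without irradiated replicate 1.

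**Figure D4:**
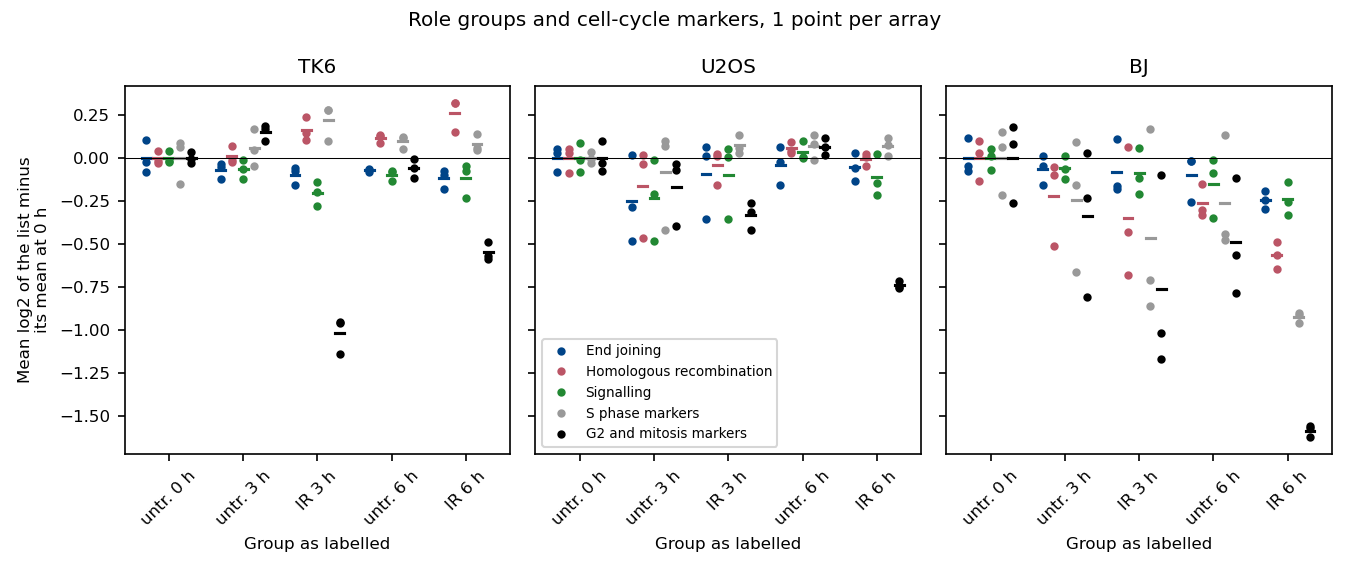
Mean log2 level of the members of each role and of the S phase and the G2 and mitosis markers, relative to the line's mean at 0 h, with 1 point per array and bars at the group means, for TK6, U2OS and BJ. In BJ at 6 h after irradiation recombination (-0.64 to -0.49) lies below end joining (-0.30 to -0.19) and signalling (-0.33 to -0.14) and above the S phase markers (-0.96 to -0.90). In TK6 the recombination points at 6 h after irradiation (0.15 to 0.32) are above those of the other roles. These values are relative to 0 h, not to untreated arrays at 6 h.

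In the arrays labelled G361, limma called 0 of 31 members at 3 h and 0 at 6 h, where 0% and 0% of all genes were called, and 0 and 1 members had an unadjusted p under 0.05. The 1 was XRCC3, whose protein forms a complex with that of RAD51C, at -0.47 (SE 0.18) at 6 h. In G361 the differences ran from -0.11 (POLQ) to 0.23 (LIG4) in end joining, -0.25 (XRCC2) to 0.07 (RAD51D) in recombination and -0.16 (RNF168) to 0.04 (RNF8) in signalling at 3 h. They ran from -0.25 (POLQ) to 0.18 (PRKDC) in end joining, -0.47 (XRCC3) to 0.10 (RAD51C) in recombination and -0.22 (CHEK1) to -0.03 (ATR) in signalling at 6 h. In the arrays labelled HepG2, 0 of 31 members were called at 3 h (0% of genes) and 0 at 6 h (0.00696%), with 1 and 4 at an unadjusted p under 0.05. RNF168, a ubiquitin ligase of histone H2A, was the 1 at 3 h (-0.34, SE 0.13, adjusted p = 0.788). The 4 at 6 h were XRCC3 (-0.37), WRN (-0.31), RAD51C (0.23) and RAD54B (0.23). In HepG2 the differences ran from -0.19 (PRKDC) to 0.05 (DCLRE1C) in end joining, -0.32 (XRCC3) to 0.21 (RAD54B) in recombination and -0.34 (RNF168) to 0.07 (RNF8) in signalling at 3 h. They ran from -0.05 (PRKDC) to 0.20 (DCLRE1C) in end joining, -0.37 (XRCC3) to 0.23 (RAD54B) in recombination and -0.25 (MDC1) to 0.13 (TP53BP1) in signalling at 6 h. Without replicate 1 of every group, 5 members were called lower in HepG2 at 3 h, where 6.53% of all genes were called. They were PRKDC (-0.40), the apical kinase gene ATR (-0.29), CHEK1 (-0.32), the adaptor gene MDC1 (-0.41) and RNF168 (-0.49). Against untreated arrays at 0 h, 0 members were called in either line or in U2OS, at 3 h or 6 h, where 0.452% and 1.54% of genes were called in HepG2, 0% and 0% in G361 and 0.116% and 0.73% in U2OS.

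Counts of members whose groups did not overlap differed between the other comparisons. In U2OS 2 were higher and 0 lower at 3 h (4.97% and 1.84% of all genes) and 1 higher and 3 lower at 6 h (5.52% and 6.93%). In BJ at 3 h 0 were higher and 0 lower (3.6% and 3.32%). In HepG2, whose labels are in doubt, 1 was higher and 9 lower at 3 h (4.56% and 8.23%), the most of the 10 comparisons, and 3 higher and 4 lower at 6 h (7.2% and 7.02%). In G361 0 were higher and 0 lower at 3 h (2.25% and 1.95%), and 0 higher and 2 lower at 6 h (3.07% and 2.89%).

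Of 310 differences (31 members in 10 comparisons), 299 had a 95% interval inside -1 to 1 log2, a 2-fold change either way, and 182 had one inside 0.5. The median distance from the difference to its bound was 0.34. Inside -1 to 1 lay 59 of 62 in TK6, 61 of 62 in U2OS and 55 of 62 in BJ. In G361 and in HepG2 it was 62 of 62 each, but the labels there are in doubt. Their intervals compare arrays as labelled and need not bound an effect of irradiation. The 11 exceptions were RAD51C and BRIP1 in TK6, DCLRE1C in U2OS at 3 h, and BRCA1, BARD1, BRIP1, RAD54B, EXO1 and CHEK1 in BJ. In signalling, CHEK1 in BJ at 6 h was the single exception, with an interval of -1.13 to -0.09.

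In mock-irradiated TK6 cells the share of members called with time was near that of all genes. Limma called 2 of 31 at 6 h against 0 h, where 5.16% of all genes were called, and 0 at 3 h (1.81%). RAD51D, a gene of homologous recombination, read 5.91, 5.74 and 5.83 at 0 h and 6.70, 6.41 and 6.46 at 6 h, without overlap (0.70, SE 0.15, adjusted p = 0.0120). RNF168 read 8.80, 9.04 and 9.01 at 0 h and 8.37, 8.43 and 8.25 at 6 h, also without overlap (-0.60, SE 0.13, adjusted p = 0.0121). Both calls were lost without replicate 2 or 3 (adjusted p of 0.173 to 0.236). With the replicate number as a block 5 of 31 were called at 6 h (12.9% of all genes), adding PRKDC lower (-0.46, adjusted p = 0.0346) and RAD54B (0.39, 0.0220) and EXO1 (0.34, 0.0223) higher. Set against 0 h, irradiated TK6 had 7 called members at 3 h (10.5% of all genes), PALB2 (0.57), RAD51C and EXO1 (0.69) higher and BARD1, RAD50, ATM (-0.57) and RNF168 lower. At 6 h 9 were called (14.2%), PALB2, BRIP1, RAD51C, RAD51D (0.61), EXO1 and BLM higher and PRKDC (-0.49), WRN and RNF168 lower. These differences also hold what changed in untreated cells. Against untreated arrays at 3 h, the 7 members called at 3 h stood at 0.13 (PALB2), 0.91 (RAD51C), 0.46 (EXO1), -0.24 (BARD1), -0.09 (RAD50), -0.16 (ATM) and -0.11 (RNF168). In the other lines 0 members were called in untreated cells at either time, where at most 0.64% of genes were (HepG2 at 6 h; BJ 0.0138% and 0.00691%). The difference between the 6 h and 3 h effects called 0 members in every line, where 0.295% of genes were called in TK6 and 0% in each other line; members at an unadjusted p under 0.05 were BARD1 in TK6 and CHEK1 in U2OS.

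Untreated levels differed widely between the lines. At 0 h, the moderated F called 28 of 31 members, beside 77.9% of all genes, and BJ had the lowest mean in 25 of 31 members, 13 of 14 in recombination, beside 4976 of 16027 genes. The widest range was that of BLM, with 8.53 ± 0.41 in G361, 8.21 ± 0.07 in U2OS, 7.93 ± 0.07 in TK6, 7.79 ± 0.23 in HepG2 and 5.38 ± 0.43 in BJ (SD, n = 3 each). Its 4 upper lines were not told apart by neighbour (adjusted p of 0.222 to 0.651), and BJ lay below HepG2 (adjusted p = 1.09e-09; 49.2% of genes called for that pair). EXO1 was also lowest in BJ, with 8.56 in HepG2 (above TK6, adjusted p = 0.00486), 7.69 to 7.88 in the next 3 lines and 5.61 in BJ. BRCA1 stood at 8.56 in G361, 8.30 in U2OS, 8.04 in TK6, 7.87 in HepG2 and 6.31 in BJ, and POLQ ran from 7.69 in TK6 through 7.37 in HepG2, 6.91 in U2OS and 6.80 in G361 to 5.37 in BJ.

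RAD51C had another order. It was highest in U2OS (10.06 ± 0.11), above TK6 (9.06 ± 0.16; adjusted p = 1.21e-06; 52.7% of genes called for that pair), HepG2 (8.90 ± 0.13), G361 (8.16 ± 0.13) and BJ (7.28 ± 0.12), and of the neighbours only TK6 and HepG2 were not told apart (adjusted p = 0.380). After irradiation TK6, at 9.94 and 9.95, stood beside an untreated level of 10.06 in U2OS. RNF168 was highest in TK6 (8.95 ± 0.13), above HepG2 at 7.76 (adjusted p = 1.09e-05; 45.5% of genes called for that pair), while U2OS, G361 and BJ at 6.88, 6.84 and 6.62 were not told apart. BRIP1 ran from 8.30 in U2OS to 7.17 in TK6 and 6.93 in BJ, with no neighbours told apart.

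Signalling genes had a median range over the lines of 1.68 log2, against 1.62 in recombination, 1.02 in end joining and 1.23 over all genes. Their orders differed. TP53BP1, the adaptor that protects ends from resection, was highest in BJ (8.56 ± 0.19) and lowest in HepG2 (6.85 ± 0.23). ATM was highest in G361 (8.72 ± 0.38) and RAD50 in TK6 (8.39 ± 0.07) with its lowest level in HepG2 (6.46 ± 0.32). The narrowest ranges were those of RAD51D (0.56), RAD52 (0.57) and LIG4 (0.66), which were also the 3 members the F test did not call. The Ku genes XRCC5 and XRCC6 ranged over 1.02 and 0.81. The sources used here do not say whether the lines were normalized together, which bears on all levels set across lines.

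**Figure D5:**
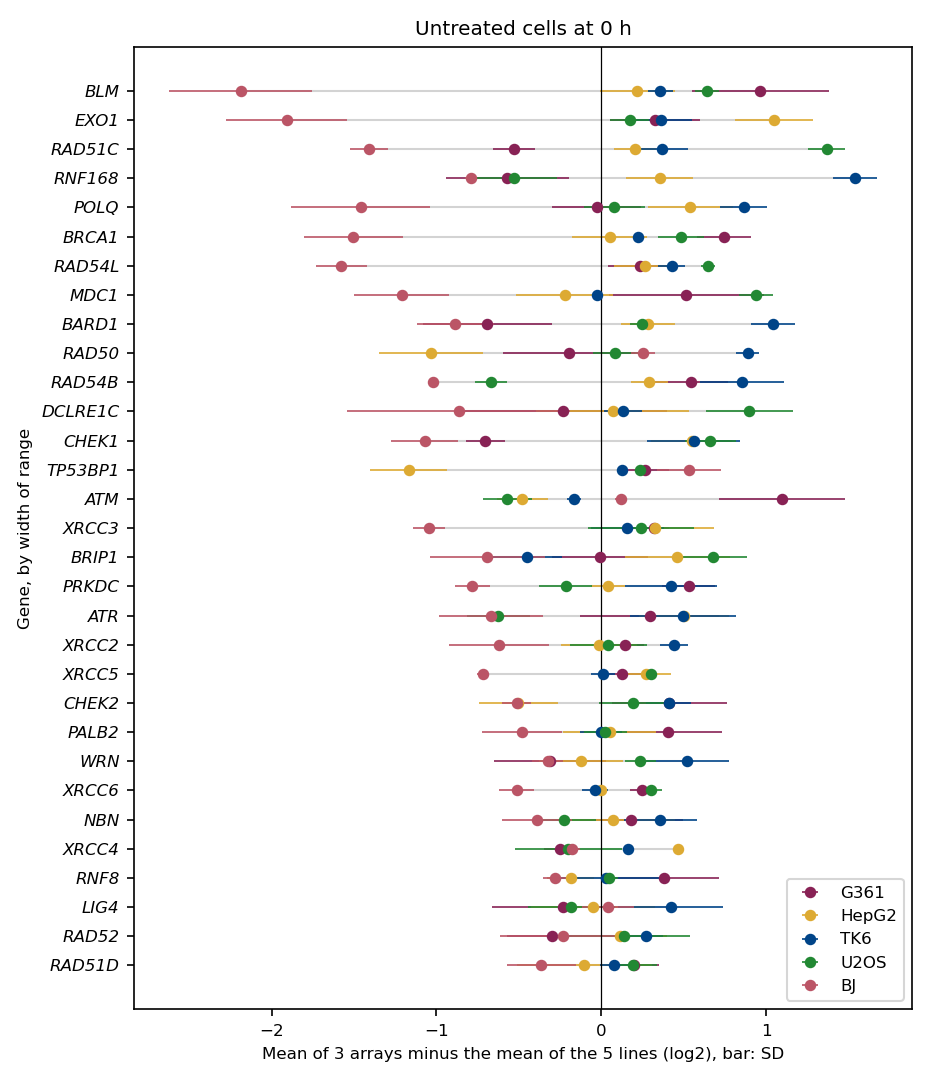
Level of each member in untreated cells at 0 h, as the mean of 3 arrays minus the mean of the 5 lines in log2, with SD bars, ordered by the width of the range. BJ lies lowest for 25 of 31 members and is 3.15 below the highest line for BLM, whereas TP53BP1 is highest in BJ and RAD51D spans 0.56.

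A further 62 genes of the same pathways were listed, of which 58 were measured. In TK6 at 3 h 2 of 57 tested rose (1.88% of all genes rose), APTX, which repairs abortive ligation ends, at 0.78 (SE 0.11, limma adjusted p = 1.30e-04), and the replicative ligase gene LIG1 at 0.55 (adjusted p = 0.00360). At 6 h APTX (0.70) and LIG1 (0.54) rose and SHLD2, a shieldin subunit gene, at -0.47 and the ubiquitin ligase gene RAD18 at -0.71 fell, beside 4.01% and 2.23% of all genes. In U2OS, BJ, G361 and HepG2 0 of these genes were called against untreated cells of the same time. Against 0 h, 3 were called in TK6 at 3 h (10.5% of all genes), APTX, LIG1 and CLSPN (0.66), all higher. At 6 h 9 were called (14.2%), APTX, LIG1, SFR1 (0.61) and RMI1 (0.31) higher and PAXIP1 (-0.53), RAD18, MCM9 (-0.77), KAT5 (-0.49) and RIF1 (-0.57) lower. In BJ at 6 h against 0 h 4 of 56 fell (1.39% of all genes fell), the recombination gene RAD51AP1 at -1.43, the dissolvasome subunit gene RMI2 at -1.25, FIGNL1 at -1.18 and the histone gene H2AX at -0.85.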

How the data were processed

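Total RNA was copied into biotinylated cRNA and hybridised, per the labels' protocols. The deposited values are log2 expression of 54675 probe sets, summarised by the authors with RMA, as the submitters' processing notes list without a version. All 75 arrays were used in the group their labels give. Symbols came from the platform's probe table, where 41097 probe sets had 1 symbol and 1801 had several.

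Each line's 15 arrays were fitted with limma 3.58.1 in R 4.3.3 (5 group means, 10 residual degrees of freedom, trended moderated variance), with Benjamini-Hochberg adjustment over the 14227 to 14654 genes whose mean passed the line's 40th percentile. Lines were compared in 1 fit of 75 arrays over 16027 genes. The scripts were tested on simulated data. No label states that the replicates are separate cultures. The p-values then reflect only array-to-array spread, possibly technical, and the number of arrays limits the precision.

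Replicate numbers come from the titles. They were taken to pair arrays where all 3 correlations of same-numbered deviations were over 0.1, which held for irradiated against untreated arrays of the same time apart from BJ at 6 h (lowest -0.0306) and HepG2 at 3 h (0.0961). Against 0 h it held for untreated TK6 at 6 h and untreated G361, HepG2 and BJ at 3 h. Members named are those called and, per role, the largest rise and fall. Members outside that rule are named after their values were seen. The members, lists and tests were chosen with earlier results of these data known, and the contrasts of a line with the mean of the others were added after the data were seen. Alternatives were the level filter, quantile normalization, the mean of probe sets, a fit of all 75 arrays or of the 6 compared, the block, the 0 h control and left-out replicates and arrays. Promoter sequences are from RefSeq (GRCh38.p14).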

Additional observations from a re-analysis of the deposited data

Results flagged for a closer look

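The effect of irradiation on 2 members differed between the 5 lines by the moderated F test of limma. For RAD51C this held at 3 h (adjusted p = 3.85e-05) and at 6 h (adjusted p = 0.0238). At 3 h the TK6 difference in RAD51C was 0.91 and those of the other lines ran from -0.11 (G361) to 0.22 (U2OS). At 6 h it was 0.81 in TK6, and the other lines ran from 0.10 (G361) to 0.44 (U2OS). For BRIP1 it held at 6 h (adjusted p = 0.0102), with 0.76 in TK6, -0.65 in BJ and -0.02 in U2OS. The labels of G361 and HepG2 are in doubt, and without these lines RAD51C at 6 h lost its call (adjusted p = 0.181), as it did with the mean of all probe sets (0.215). Leaving out replicate 1, 2 or 3 of every group ended the BRIP1 call (0.106, 0.179 and 0.326), and leaving out replicate 2 or 3 ended that of RAD51C at 3 h (0.0870 and 0.0911) and at 6 h (1 and 0.621). RAD51C kept both F calls without replicate 1. Without replicate 2 or 3 the F test also called fewer of all genes, at most 0.399% at 3 h and 0.568% at 6 h. In BRIP1 at 6 h all 3 irradiated arrays lay above all untreated ones in TK6 and below all of them in BJ.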

How the results depend on the processing

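RAD51C in TK6 at 3 h (0.84 to 0.97) and 6 h (0.76 to 0.89) and BRIP1 in TK6 at 6 h (0.64 to 0.85) kept their direction and call under each of their 16 alternatives, with adjusted p up to 0.00333, 0.00950 and 0.0446. No called difference changed sign. Uncalled role medians did, at 3 h in BJ recombination (-0.09 to 0.05 without irradiated replicate 1) and in U2OS end joining (0.15 to -0.01 without untreated replicate 1). Blocking on replicate number gave 5 called members in TK6 at 3 h (8.46% of all genes). In untreated TK6 cells it gave 5 at 3 h (6.99%, where numbers did not pair the arrays) and 5 at 6 h (12.9%). In the F test at 6 h it gave 5 (4.09%), which adds BRCA1, RAD54B and EXO1. The block changed no other count by over 1.5 times. With untreated 0 h arrays as control 7 and 9 were called in TK6 (10.5% and 14.2% of all genes) and 1 and 5 in BJ (0.297% and 2.08%) at 3 h and 6 h. In U2OS at 6 h 1 was called after quantile normalization, 1 in the fit of 75 arrays and 1 with 6 arrays alone. In BJ at 6 h 3 were called in the fit of 75 arrays and 1, BRCA1, with 6 arrays alone; over its alternatives its adjusted p ran from 0.00657 to 1. The F test at 6 h called 1 with the mean of all probe sets (1.91% of all genes) and 1 without G361 and HepG2 (1.25%), BRIP1 in both.

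With a replicate left out of every group, or a single array left out, the members called numbered 1 to 1 in TK6 at 3 h, 2 to 3 at 6 h, 0 to 3 in untreated TK6 at 3 h and 0 to 3 at 6 h, 0 to 5 in HepG2 at 3 h and 0 to 1 in U2OS at 6 h. The F test called 0 to 1 at 3 h (0.324% to 1.57% of all genes) and 0 to 1 at 6 h (0.505% to 1.98%), and 23 to 30 for the levels at 0 h. All other comparisons gave 0 to 0. The cause of these changes was not tested. Counts under this heading without a share of all genes beside them are not read as results about the members. With 3 arrays a group, the widest 95% interval reached 0.74 log2 either side. Members with low signal, such as EXO1 in irradiated BJ at 3.65 to 4.48, lie near the level limit of 3.47 used for testing there.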
